A study of Mus musculus with 2 samples.

Results

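Aminoacyl-tRNA synthetases are the enzymes that join each amino acid to its transfer RNA. The 36 genes described here encode the cytosolic enzymes (20 genes, named by the amino acid letter and "ars") and the mitochondrial enzymes (16 genes, with the suffix 2). They were followed in 2 RNA sequencing libraries of splenic CD4+ T cells, the helper lymphocytes, from male C57BL/6JJcl mice. Cells were pooled from 4 spleens and enriched magnetically. In the stimulated library the cells had been held for 4 h on plate-bound antibodies, 1 against CD3e, which signals for the T cell receptor, and 1 against CD28, a costimulatory receptor, both at 2 ug/ml. Mock cells went through the same steps with the antibodies left out. There was 1 library per group, so no replicate check, no spread between samples and no p-value exist, and each difference is one between these 2 libraries.

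Only reads spliced across an intron were available, so a gene's value is the number of such reads summed over its junctions, or, where stated, reads scaled to 1000000 junction reads per library (RPM). Of the 36 genes, 34 had a named junction, out of 9644 such genes in the series. Mars2 has no annotated intron and Pars2 has 1, so neither could be named by the structure of its introns. Each interval is an exact 95% interval by the Clopper-Pearson method; it covers counting error only, since reads are not independent molecules. A gene is called higher or lower when it had at least 20 reads over both libraries, changed at least 2-fold and had an interval that excluded 1.

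All protein synthesis draws on charged transfer RNA, and a resting T cell makes little protein until its receptor is engaged. Mammalian cells keep separate nuclear genes for the cytosolic and the mitochondrial enzyme of most amino acids. Gars and Kars each serve both compartments, and in mitochondria glutamine is charged by a detour through the glutamate enzyme Ears2 and an amidotransferase. The enzymes fall into class I and class II by the fold of their catalytic domain. Several cytosolic enzymes are held together in the multisynthetase complex by the scaffold proteins Aimp1, Aimp2 and Eef1e1.

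The mock library held 1147232 junction reads and the stimulated library 1341197. All 8 listed T cell markers were measured in both libraries (3834 and 3886 RPM in sum, median log2 ratio -0.43). Cd4 itself was lower (650 and 285 reads, ratio 0.375), Cd3e stood at 0.579 and Cd3g at 0.532, and Lck at 1.31 and Cd5 at 1.95 went the other way; the activation markers Il2ra and Cd69 were 18-fold and 12.5-fold higher. The 5 listed B cell genes together held 135 and 99.9 RPM and the 6 myeloid genes 42.7 and 29.8, with Lyz2 at 15 mock reads and 0 stimulated reads and Cybb, the only one called, at 5 and 19 (3.25-fold higher, 1.17 to 11.1). Cd8b1 of CD8 T cells had 16 and 5 reads, Eomes of NK cells 7 and 36, and the 2 erythroid genes together 75 and 156. Cd8a, Ncr1 and Klrb1c had no named junction. Mean insert size, 211.79 bp in the mock and 199.014 bp in the stimulated library, also moved with the group. The part of these differences in the results was not tested, and more cells of a type and more RNA per cell cannot be told apart in such samples.

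The cytosolic enzymes rose almost as a block in the stimulated library, while the mitochondrial enzymes moved in both directions around no change. Of 20 cytosolic enzymes 19 were higher and none lower, where 17.0% of the 7197 measured genes were higher and 25.1% lower. Their median log2 ratio was 1.95, against -0.21 over all measured genes. Of the 12 mitochondrial enzymes with at least 20 reads 3 were higher, 3 lower and 6 neither, with a median log2 ratio of 0.00. Of all measured genes 42.2% were called in either direction, so the 6 of 12 mitochondrial enzymes called are near the background. All cytosolic enzymes together went from 3621 to 14981 RPM, a 4.14-fold difference (4.00 to 4.28), and took 0.362% of junction reads in the mock and 1.5% in the stimulated library. The 14 named mitochondrial enzymes together went from 622 to 565 RPM (ratio 0.908, 0.819 to 1.01). Reads on cytosolic enzymes thus outnumbered those on mitochondrial enzymes 5.82 to 1 in the mock and 26.5 to 1 in the stimulated library, a 4.56-fold shift (4.09 to 5.08) that does not depend on how the libraries are scaled.

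**Figure D1:**
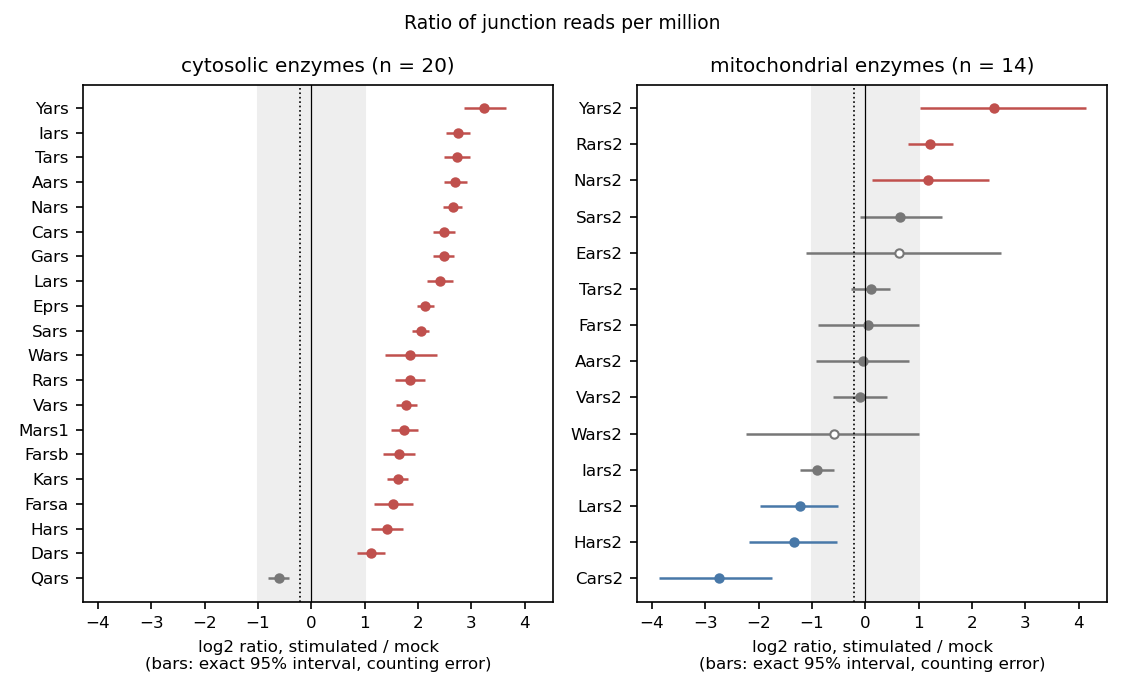
The log2 ratio of the stimulated to the mock library is plotted for each enzyme, with its exact 95% interval as a bar (red, higher; blue, lower; grey, neither; open, under 20 reads; grey band, under 2-fold; dotted line, median of all measured genes). The cytosolic enzymes other than Qars lie at 1.11 or above, and the mitochondrial enzymes spread from -2.74 to 2.41.

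Among the cytosolic enzymes the tyrosine enzyme Yars (chr4:128867317-128895674 on mm9, from the first to the last intron) had the highest ratio. It went from 58 to 641 reads, 9.45-fold higher (7.22 to 12.6). The branched-chain enzyme Iars, for isoleucine, went from 184 to 1442 reads, 6.70-fold higher (5.75 to 7.86). Tars, for threonine, went from 162 to 1256 reads and was 6.63-fold higher (5.63 to 7.86). Aars, the alanine enzyme, went from 211 to 1600 reads (6.49-fold, 5.62 to 7.52). The interval of Yars overlaps those of Iars, Tars and Aars, so the order of these 4 is not settled by the counts. Nars, for asparagine, went from 283 to 2071 reads (6.26-fold, 5.53 to 7.11). Cars, for cysteine, went from 229 to 1502 reads (5.61-fold, 4.88 to 6.48). These were followed by Gars, which charges glycine in both compartments, from 241 to 1569 reads (5.57-fold, 4.86 to 6.40). Lars, for leucine, went from 164 to 1020 reads (5.32-fold, 4.51 to 6.31). From Iars down to Lars each interval overlaps the next, and these 7 enzymes form a run without a gap.

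Eprs, which carries the glutamate and the proline enzyme on 1 chain, went from 352 to 1812 reads and was 4.40-fold higher (3.93 to 4.95). Sars, the serine enzyme, went from 376 to 1822 reads and was 4.14-fold higher (3.71 to 4.64). The remaining cytosolic enzymes that were called lay between 2.16-fold and 3.62-fold. The tryptophan enzyme Wars, which is also known to respond to interferon gamma, had the fewest reads of the set, 47 and 199 (3.62-fold, 2.62 to 5.09). Rars for arginine (134 and 565 reads) was 3.61-fold, Vars for valine (265 and 1066) 3.44-fold and Mars1 for methionine (170 and 665) 3.35-fold higher. The phenylalanine enzyme is built from 2 kinds of subunit, and its genes had overlapping intervals: Farsb went from 121 to 442 reads (3.12-fold, 2.55 to 3.85) and Farsa from 83 to 280 (2.89-fold, 2.25 to 3.73). Kars, the lysine enzyme of both compartments, was 3.07-fold higher (262 and 939 reads), and Hars for histidine 2.67-fold (123 and 384 reads). Dars, for aspartate, was the lowest of those called, from 166 to 419 reads (2.16-fold, 1.80 to 2.60).

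Qars, the glutamine enzyme (chr9:108410531-108418126 on mm9), was the exception. It had 523 mock reads, the most of any member in that library, and 399 stimulated reads, a ratio of 0.653 (0.571 to 0.745). Its interval excluded 1, but the change was smaller than 2-fold and it was not called. On the log2 scale its ratio was -0.62, where the median of all measured genes was -0.21. With the trimmed mean of M values as scaling it was -0.37, and with the median of ratios -0.39. Qars made up 12.6% of all reads on cytosolic enzymes in the mock and 1.99% in the stimulated library. No other cytosolic enzyme had a ratio below 1.

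To compare levels between genes, the RPM of each gene's most-read annotated transcript were divided by its number of introns. On this scale the cytosolic enzymes ran from 4.21 (Yars) to 31.7 (Sars) in the mock library, with a median of 8.63, and from 12.9 (Qars) to 131 (Sars) in the stimulated library, with a median of 31.4. Qars was 2nd of all 34 enzymes in the mock library, at 19.8, and last of the 20 cytosolic enzymes in the stimulated library. Yars moved the other way, from 4.21, the lowest cytosolic level, to 39.8. Sars stood at the top in both libraries, and Nars rose from 17.4 to 109. The mitochondrial enzymes ran from 0.545 (Ears2) to 8.60 (Iars2) in the mock library and from 0.533 (Cars2) to 7.02 (Rars2) in the stimulated library, with medians of 2.16 and 1.79. In the mock library Iars2 and Tars2 (5.64) lay within the cytosolic range. In the stimulated library every named mitochondrial enzyme lay below every cytosolic one.

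**Figure D2:**
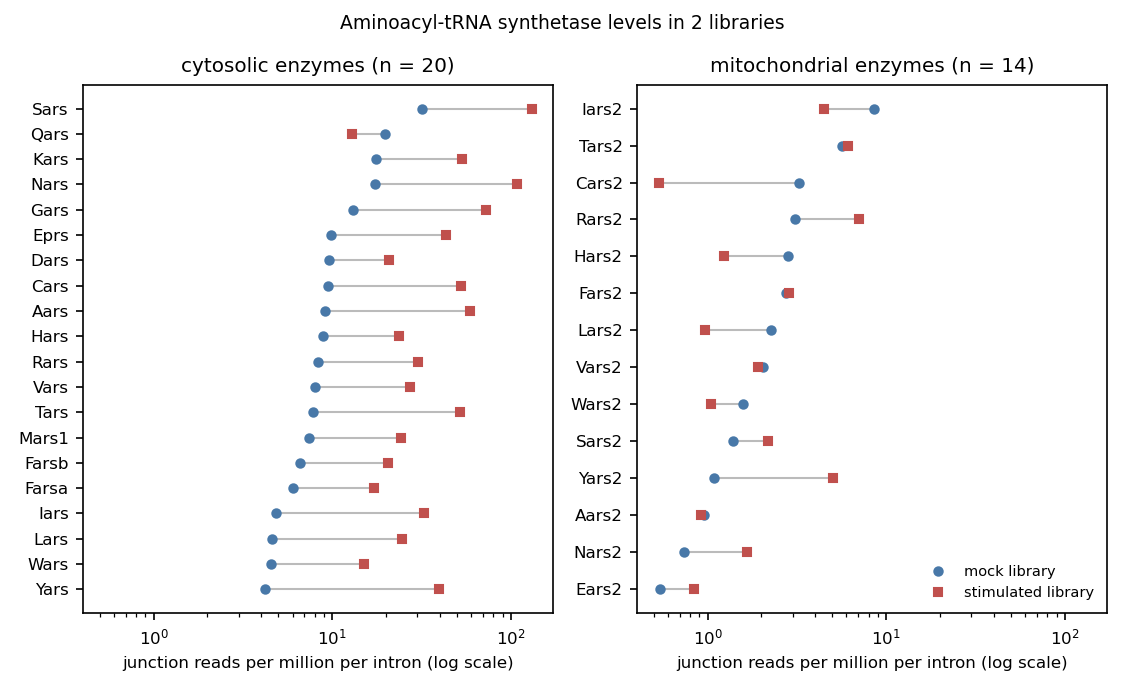
Levels of 34 enzymes are shown as RPM per intron on a log axis, with circles for the mock and squares for the stimulated library, joined for each enzyme. Sars goes from 31.7 to 131 and Qars from 19.8 to 12.9, and the stimulated levels of the mitochondrial enzymes stay at or under 7.02.

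The higher reads of the cytosolic enzymes were seen at nearly all of their junctions. Over the 19 enzymes other than Qars, 343 junctions of their main transcripts had a read in either library, with no minimum, and 338 of them had more RPM in the stimulated library. The other 5 were 1 junction of Dars (9 reads in each library), 1 of Mars1 (22 and 24), 1 of Vars (3 in each) and 2 of Iars (1 and 0, 4 and 0). These 19 enzymes were called on the sum of their junctions, so the count of 338 largely restates the gene ratios. No share over all genes stands beside it. Among junctions with at least 10 reads over both libraries, those of Yars ran from 5.13-fold to 22.2-fold, and those of Aars from 2.57-fold to 20.5-fold. Qars was mixed: 5 of its 22 such junctions lay above 1, 5 lay at or below 0.5, and the range was 0.349 to 1.88. Its most-read junction (chr9:108413950-108414813 on mm9) had 98 mock reads and 40 stimulated reads, and this junction alone would be called lower, with a log2 ratio of -1.52. By the most-read junction alone 15 cytosolic enzymes were higher, a count with no share over all genes beside it. Dars, Farsa, Rars and Wars lost their call.

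**Figure D3:**
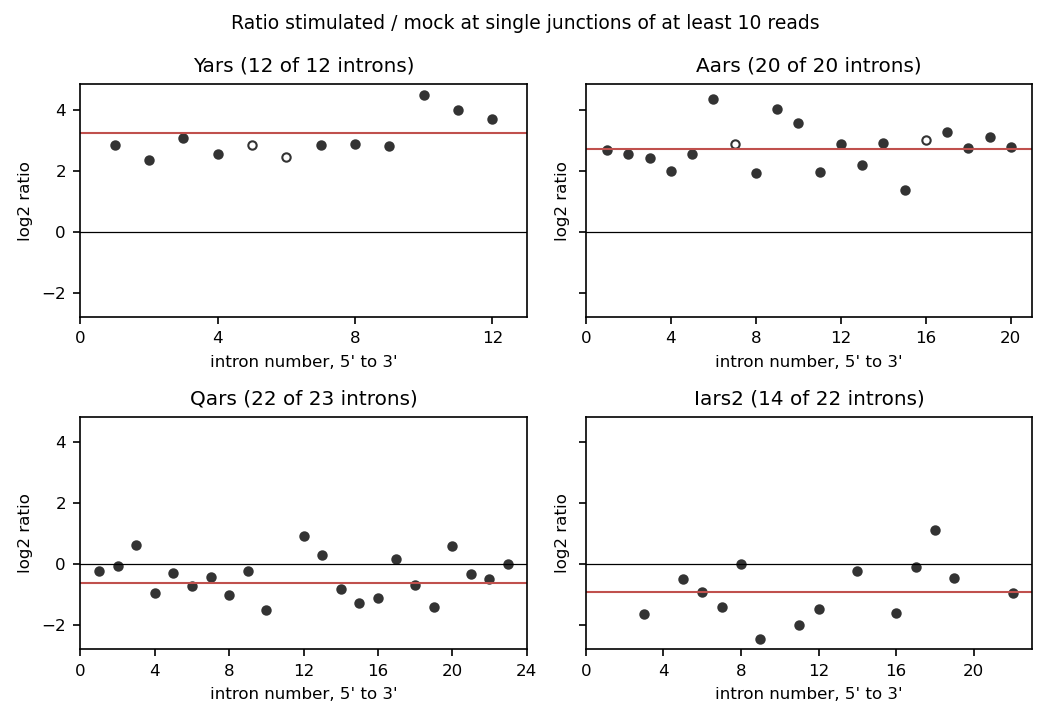
Each point is the log2 ratio of 1 junction with at least 10 reads, by intron number from the 5' end, for Yars, Aars, Qars and Iars2 (open points, no mock read, set to 3 reads; red line, the whole gene). All points of Yars and Aars lie above 0, while those of Qars lie on both sides of it between 0.349-fold and 1.88-fold.

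With each gene split at its middle intron, Sars was the only named enzyme whose first and last introns gave intervals that did not overlap. These intervals were not widened by the spread between junctions. Farsa was 5.19-fold higher (2.93 to 9.90) over its first introns and 2.38-fold (1.80 to 3.18) over its last. Kars was 3.70-fold (2.98 to 4.62) and 2.64-fold higher (2.20 to 3.18), and Sars 5.08-fold (4.24 to 6.13) and 3.53-fold higher (3.05 to 4.10). In Gars, which was 5.33-fold and 5.82-fold higher, and in Nars, at 6.24-fold and 6.31-fold, the 2 parts were within each other's interval.

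Grouped by enzyme class or by membership of the multisynthetase complex, most cytosolic enzymes were higher in every group. In class I 9 of 10 enzymes were higher, with a median log2 ratio of 2.00, and in class II 10 of 10, with a median of 1.85. Eprs, which carries the glutamate and the proline enzyme, was counted in class I by its glutamate part. Of the 8 enzymes of the complex 7 were higher, with a median of 1.80, and Qars, which belongs to it, was the other. Of the 12 outside it all were higher, with a median of 2.26. These medians were not tested, since genes are not replicates. The scaffold genes Aimp1 (45 and 107 reads, 2.03-fold, 1.42 to 2.95), Aimp2 (31 and 97 reads, 2.68-fold, 1.77 to 4.15) and Eef1e1 (22 and 134 reads, 5.21-fold, 3.30 to 8.59) were higher, all 3 of the list. Of all measured genes 17.0% were higher.

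Promoters of the cytosolic enzymes are shown because these genes moved together and because the response element that joins C/EBP and ATF factors is known from genes of amino acid supply. The RefSeq table of promoters on GRCm38.p6, which runs from 250 bases before to 50 bases after each start, held 13 of the 20 cytosolic and 14 of the 16 mitochondrial enzymes. The core letters TGATGNAA, searched on both strands, were in 5 of these 13 cytosolic promoters and in 0 of the 14 mitochondrial ones, against 4.51% of all 27025 genes in the table. The 5 were Yars, Iars, Tars, Aars and Gars, and they are the 5 with the highest ratios of the 13, from 9.45-fold to 5.57-fold. The next was Eprs at 4.40-fold, with no match in its window. Both motifs were chosen with earlier results of these data known, so this order is a description only. A link between match and ratio was not tested. The E-box letters CACGTG, which read the same on both strands and share no letters with the first motif's matches here, were in 4 cytosolic promoters (Aars, Iars, Tars and Farsb) and 1 mitochondrial promoter (Ears2), against 8.09% of all genes. Nars, Cars and Lars, whose ratios were also above 5, are among the 7 cytosolic enzymes not in the table. A match is a string of letters and not a measured binding site, and when only the 250 bases before the start are searched Yars and Iars have no match to the first motif.

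The stretches with the matches follow, from RefSeq on GRCm38.p6, 5′ to 3′ on the gene's strand, with the matches to both motifs in capitals. Each ends 20 bases past the start (25 for Tars). Qars, the enzyme that did not rise, is given for comparison and holds no capitals. Lack of a match to the first motif is not particular to Qars. Eprs, Sars, Mars1, Farsb, Kars, Farsa and Dars had none in their windows either, and were 4.40-fold to 2.16-fold higher.
Yars, chr4:129189843-129189922, plus strand: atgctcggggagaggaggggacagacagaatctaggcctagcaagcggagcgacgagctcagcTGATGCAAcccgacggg
Iars, chr13:49682050-49682149, plus strand: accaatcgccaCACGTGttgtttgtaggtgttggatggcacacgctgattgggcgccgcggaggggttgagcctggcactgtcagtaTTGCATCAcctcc
Tars, chr15:11399634-11399718, minus strand: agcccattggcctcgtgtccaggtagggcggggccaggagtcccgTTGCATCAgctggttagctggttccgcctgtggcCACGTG
Aars, chr8:111033687-111033861, plus strand: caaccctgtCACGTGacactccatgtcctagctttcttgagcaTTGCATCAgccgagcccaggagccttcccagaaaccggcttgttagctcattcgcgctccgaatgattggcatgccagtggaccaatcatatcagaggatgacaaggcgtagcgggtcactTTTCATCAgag
Gars, chr6:55037941-55038020, plus strand: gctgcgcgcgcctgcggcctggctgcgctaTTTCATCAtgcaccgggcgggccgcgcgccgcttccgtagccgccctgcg
Qars, chr9:108507945-108508024, plus strand: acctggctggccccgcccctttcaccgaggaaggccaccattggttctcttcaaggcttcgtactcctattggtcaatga
In Yars the motif lies on the gene's own strand, and in Iars, Tars, Aars and Gars it is read on the opposite strand. Iars, Tars and the upstream match of Aars share the letters TTGCATCA, the reverse complement of the TGATGCAA of Yars.

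The mitochondrial enzymes that were higher were those for tyrosine, arginine and asparagine. Yars2 went from 5 to 31 reads, 5.30-fold higher (2.04 to 17.5). Rars2 went from 67 to 181 reads, 2.31-fold higher (1.74 to 3.11). Nars2 went from 11 to 29 reads, 2.26-fold higher (1.09 to 5.0), and lost its call when the interval was widened by the spread between junctions. Yars2 and Nars2 also lost it, for too few reads or too small a ratio, when junctions seen in 1 library were left out. Of the 3, Rars2 rests on the most reads.

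Cars2, the mitochondrial cysteine enzyme (chr8:11514192-11550498 on mm9), was the lowest of all 34. It went from 57 reads to 10, 6.66-fold lower (3.37 to 14.6). No junction of its main transcript reached 10 reads over both libraries. With junctions seen in 1 library left out its log2 ratio was -1.71 rather than -2.74, and it was still called lower. Hars2, for histidine, went from 43 to 20 reads, 2.51-fold lower (1.45 to 4.51), and Lars2, for leucine, from 52 to 26 reads, 2.34-fold lower (1.43 to 3.90). Both lost their call when junctions seen in 1 library were left out, with log2 ratios of -0.66 and -0.95, and Lars2 also with the trimmed mean of M values as scaling (log2 ratio -0.98). Iars2, for isoleucine, had the most reads of the set, 217 and 135, and a ratio of 0.532 (0.426 to 0.663), just short of 2-fold lower.

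The other mitochondrial enzymes were not called. Tars2 had 115 and 144 reads (ratio 1.07, 0.832 to 1.38), and Vars2 67 and 73 (0.932, 0.660 to 1.32). Aars2, with 23 and 26 reads, stood at 0.967 (0.530 to 1.77), and Fars2, with 19 and 23, at 1.04 (0.539 to 2.01). Sars2, with 24 and 44 reads, stood at 1.57 (0.933 to 2.70), and was called higher when junctions seen in 1 library were left out (log2 ratio 1.02). For Tars2, Vars2 and Aars2 the intervals leave no room for a 2-fold change in either direction, by counting error alone, whereas that of Fars2 reaches 2.01. By the median over its junctions, which has no interval, Vars2 had a log2 ratio of -1.05. Ears2, with 5 and 9 reads, and Wars2, with 9 and 7, were under the minimum. Pars2, for proline, had 1 mock read and no stimulated read at the junction whose spacing to the 10 nearest named junctions equals that in the annotation.

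Set side by side by amino acid, the cytosolic enzyme had the larger ratio in all 12 pairs with at least 20 reads on each side. For phenylalanine the reads of Farsa and Farsb were summed (204 and 722) and set against Fars2. In 11 of the 12 the exact interval of the ratio of ratios lay above 1, and the median was 4.78-fold, or 2.26 on the log2 scale. These intervals cover counting error and were not widened by the spread between junctions. Of the 11, the lower limit for arginine, 1.09, was nearest to 1. The widest gap was that for cysteine, where Cars rose 5.61-fold and Cars2 fell to 0.150 of its mock value, a ratio of ratios of 37.4 (18.5 to 83.0). For isoleucine it was 12.6 (9.59 to 16.5), and for leucine 12.4 (7.37 to 21.3). Iars and Iars2 crossed over: the mitochondrial enzyme had more reads in the mock library (217 against 184), and the cytosolic one in the stimulated library (1442 against 135). The narrowest gaps were those for arginine, at 1.56 (1.09 to 2.21), and for tyrosine, at 1.78 (0.521 to 4.87), where the interval includes 1. In both of these pairs the mitochondrial enzyme was itself called higher.

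**Figure D4:**
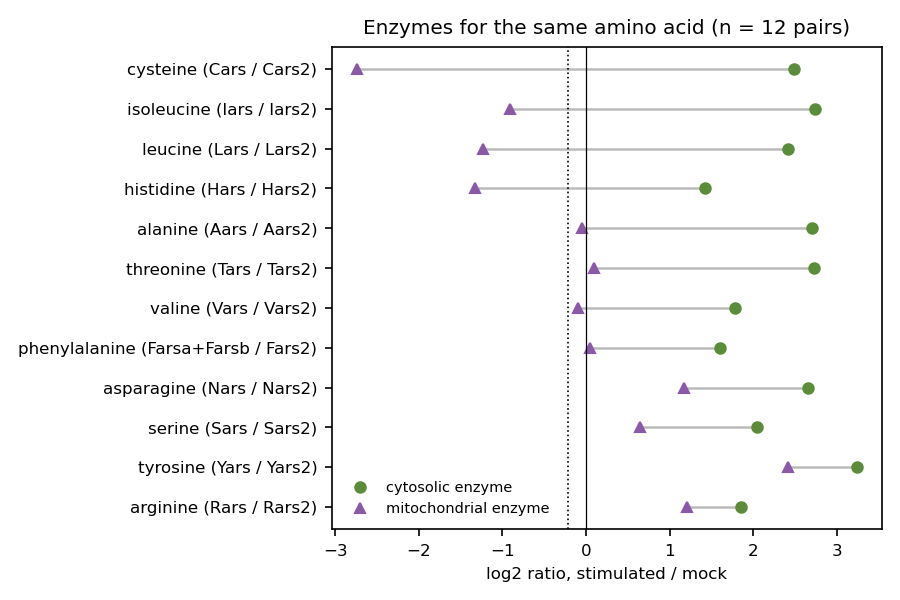
For 12 amino acids the log2 ratio of the cytosolic enzyme (circle) and of the mitochondrial enzyme (triangle) are joined by a line, ordered by the gap; the dotted line is the median of all measured genes. The circle lies to the right of the triangle in all 12, from 0.64 apart for arginine to 5.22 apart for cysteine.

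No difference in splice site use within the enzymes was called between the libraries. At 19 splice sites in 11 of the genes, shared by more than 1 junction and with at least 20 reads in each library, no junction's share of reads differed by at least 20 percentage points with intervals apart, where 1.52% of the 4145 such sites of all genes did. With 19 sites, 0 calls is near that share and does not set these enzymes apart. The clearest alternative was in Sars, where 1 splice site (the shared end at chr3:108230308 on mm9) sent 16.4% of its reads (8.79 to 27.0; 12 of 73) to the nearer partner in the mock library and 17.6% (13.5 to 22.2; 56 of 319) in the stimulated library. In Eprs a junction that leaves out an exon took 1 of 26 reads at its end in the mock and 6 of 172 in the stimulated library. In Cars a junction that leaves out an exon had 0 of 21 reads in the mock library, with an upper limit of 16.1%, and 9 of 149 (6.04%, 2.80 to 11.2) in the stimulated library. The 2 intervals overlap, so no difference in Cars was detectable at this depth.

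Kars makes its cytosolic and mitochondrial forms by splicing, so its junctions show which form the reads come from. Both forms share the exon that follows, and the junction sequences differ only before it. They are printed from the GENCODE transcripts with 20 bases on each side of the join and the shared exon in capitals.
Kars, cytosolic form: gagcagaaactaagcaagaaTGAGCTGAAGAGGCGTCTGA
Kars, mitochondrial form: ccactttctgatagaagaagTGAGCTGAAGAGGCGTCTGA
The cytosolic junction (chr8:114529689-114535109 on mm9) had 6 of 7 reads at this end in the mock library (85.7%, 42.1 to 99.6) and 21 of 22 in the stimulated library (95.5%, 77.2 to 99.9). The mitochondrial junction (chr8:114529689-114532106) had 1 read in each library. Most reads at this end were of the cytosolic form in both libraries, and a difference between the libraries was not detectable at this depth. Wars showed 2 first exons spliced to the same next exon: the junction from chr12:110126759-110132278 had 2 mock and 20 stimulated reads, and that from chr12:110126759-110131369 had 0 and 18. With 2 mock reads in all at this end, its use in the mock library is not known.

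Of the enzymes' 392 named junctions with at least 10 reads over both libraries, 20 (5.10%), in 12 of the enzymes, had no mock read and 0 had no stimulated read. Over all genes 1045 of 48164 such junctions (2.17%) had no mock read and 892 (1.85%) no stimulated read. The difference in share was not tested. A junction with no mock read passes this minimum only through the stimulated library, where most of these genes were higher. The count of 20 against 0 therefore restates the gene ratios. The most-read was in Gars (chr6:54996510-54998060 on mm9), with 0 and 49 reads, followed by 1 near the 3′ end of Mars1 (chr10:126733690-126733928) with 0 and 36. In Mars1 a neighbouring small exon was used in 6 of 42 stimulated reads (14.3%) at the same end, and the mock library had no read there.

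Genes that work with these enzymes were counted from lists by role. Tarsl2, a second threonine enzyme of the cytosol, was 2.88-fold lower (32 and 13 reads, 1.47 to 5.97), opposite in direction to Tars. Among 5 measured genes of the mitochondrial amidotransferase, formylation and selenocysteine charging none were higher and 1 was lower. Over all measured genes 17.0% were higher and 25.1% lower, so this count is near the background. The lower gene was Pstk, the kinase that prepares selenocysteine transfer RNA, which went from 32 to 3 reads (12.5-fold lower, 3.90 to 63.6). The amidotransferase subunit Gatb, the highest of those measured, had 5 and 15 reads (ratio 2.57, 0.887 to 9.03), and Mtfmt, which formylates the mitochondrial initiator, 32 and 39. Of 3 measured editing and recycling factors 1 was lower, the alanine enzyme's partner Ankrd16 (71 and 32 reads, 2.59-fold, 1.69 to 4.07), and none higher. With 3 genes this count cannot be told from the background either. Aarsd1, an editing factor for wrongly charged alanine transfer RNA, stood at 0.697 (0.457 to 1.06).

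Transfer RNA end processing and export had 11 measured genes, of which 5 were higher and 0 lower (median log2 ratio 0.82). Over all measured genes 17.0% were higher and 25.1% lower. Pop1, a subunit of the RNase P and MRP enzymes, went from 0 to 57 reads. With the mock library set to 3 reads it was 16.3-fold higher, and the lower limit of its interval was 12.8. Xpot, which carries transfer RNA out of the nucleus, was 6.31-fold higher (21 and 155 reads, 3.99 to 10.5), and the RNase P subunit Rpp30 was 5.79-fold higher (17 and 115 reads). Ssb, which binds new transfer RNA ends and had the most reads of the list, stood at 1.77 (1.62 to 1.93), and Rpp40 was the lowest at 1.03. The factors that take charged transfer RNA to the ribosome were not called: 0 of 5 measured cytosolic elongation genes and 0 of 4 mitochondrial ones. Of all measured genes 42.2% were called in either direction, and lists this small say little beside that share. Eef2, with 5820 and 4683 reads, had a ratio of 0.688 (0.662 to 0.715), and Eef1d was the highest of the measured cytosolic genes at 1.72 (1.44 to 2.06). Among the mitochondrial factors Tsfm, with 8 and 19 reads, was highest at 2.03 (0.849 to 5.36), Gfm1 had the most reads (75 and 170, 1.94, 1.47 to 2.58) and Guf1 was lowest at 0.635 (0.367 to 1.09).

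**Figure D5:**
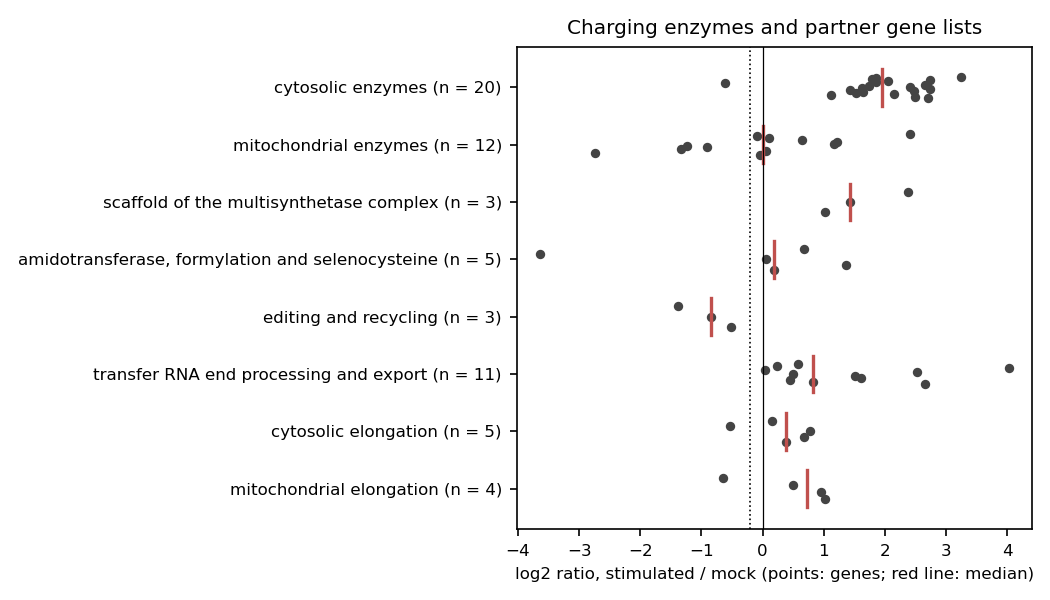
Points are the log2 ratios of single genes with at least 20 reads in each list, the red line is the list's median, and the dotted line is the median of all measured genes. The cytosolic enzymes, with a median of 1.95, and the 3 scaffold genes, with a median of 1.42, lie to the right, while Pstk at -3.64 and Cars2 at -2.74 are the lowest points. Pop1, at 4.02, had no mock read and is plotted with the mock library set to 3 reads.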

How the data were processed

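The authors deposited 1 BED file of TopHat junctions per library, per the file headers, and its score column was used as counts of reads that span each junction. The submitters' processing notes name TopHat, Cufflinks and mm9; their versions, settings and filters are not stated there. Reads inside an exon are not counted, and a junction the aligner missed counts as 0. The annotation used was GENCODE M21 on another build (GRCm38), so no coordinate was converted. A junction took a gene's name when its intron length, strand and chromosome, and its exact distance to another such junction, matched a transcript of that gene. Of 124183 junctions 95336 (76.8%) were named and 321 matched more than 1 gene and were left out; with chromosomes exchanged in 5 rotations, at most 88 were named. Ratios used reads scaled to 1000000 junction reads per library, and a library at 0 reads was set to 3. Naming and calling were tested on simulated data. The simulated counts held counting error only, with changes above 2-fold placed in well-read genes, so that test was easier than these data. Scalings came from edgeR 4.0.16 and DESeq2 1.42.0, intervals from scipy 1.17.1. The spread between junctions of a gene was 2.01 times the counting variance over 4911 genes. All members are named, and of each further list the highest, lowest and most-read gene; other genes were chosen after values were seen, and 1 listed gene is not reported here. The members, lists and motifs were chosen with earlier results of these data known.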

Additional observations from a re-analysis of the deposited data

How the results depend on the processing

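The cytosolic enzymes kept 19 higher under each scaling, read minimum and widened interval tried, and their median log2 ratio was 1.95 to 2.20 under all alternatives run. The trimmed mean of M values put the point of no change at -0.24 and the median of ratios at -0.23; these raised the mitochondrial median to 0.24 and 0.23, and no direction named in the report for a called gene was turned. With a minimum of 50 reads 1 of 8 mitochondrial enzymes was higher. By the most-read junction alone, which leaves 3 mitochondrial enzymes with enough reads, 1 cytosolic enzyme was lower, 1 mitochondrial enzyme was higher, 0 were lower, and the mitochondrial median was 0.94. Leaving out junctions seen in 1 library left 1 mitochondrial enzyme lower and newly called Sars2 higher (log2 ratio 1.02). At a fold of 1.5, 1 cytosolic enzyme, Qars, was lower. At a fold of 4, 10 cytosolic enzymes were higher, and 1 mitochondrial enzyme was higher and 1 lower. The share of all genes called is given for the main rule only, so counts under the other rules have no background beside them. Over the pairs the median difference ran from 2.16 to 2.69. No splice site of a member was called at a minimum of 10 reads (50 sites) or a difference of 10 percentage points. With the 250 bases before the start only, 3 members held TGATGNAA and 3 held CACGTG. Naming Pars2 by its neighbours was chosen after seeing the data and changed no count of calls. The median over junctions has no interval, so its calls rest on size alone; by it Sars2 (2.36) was higher and Vars2 (-1.05) lower. Low read counts leave wide intervals for mitochondrial enzymes such as Yars2. No paired analysis was possible because each group has 1 library.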
